A study of Mus musculus with 24 samples.

Results

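Glycolysis and hypoxia-response genes were followed through 8 groups of adult mouse fibroblasts, with and without proteasome inhibition. The set was a given list of 37 gene symbols, looked up by symbol in the deposited table of TPM (length-scaled transcript abundance), a unit in which a gene's share of the RNA is corrected for its length. All 37 were among the 19880 genes listed and all 37 passed the filter on low values, leaving them among the 13489 genes tested. They were grouped by role into 4 oxygen sensors and transcription factors, 16 genes of glucose uptake and glycolysis, 2 enzymes of fructose 2,6-bisphosphate, 5 genes of the pyruvate and lactate branch and 10 other hypoxia-response targets.

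The 24 libraries were bulk mRNA-seq of fibroblasts grown from tails of young male C57/Bl6 mice (C57BL/6J in the study's methods), all from 1 starting pool, with 3 libraries in each group. Quiescent fibroblasts were held at confluence, senescent fibroblasts had been passaged until they stopped expanding, immortalized fibroblasts carried a retroviral SV40 large T antigen, and proliferating fibroblasts were kept sparse. In each of these 4 cell-states, 1 group received 10 µM MG132, a peptide aldehyde that blocks the proteasome, and 1 group received the 0.1% DMSO vehicle, both for 8 h. A general statement in the study's methods has repeats done on different days, without naming these libraries, and the labels give no culture or day. Each p-value thus rests on the variation among the 3 libraries of a group, pooled over all 8 groups. That variation may be technical.

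Hypoxia-inducible factors pair an oxygen-labile alpha subunit (HIF1A, or EPAS1, also called HIF-2α) with ARNT and bind a short DNA core in their target genes. In oxygen, the prolyl hydroxylases EGLN1 and EGLN3 mark the alpha subunit for VHL, which sends it to the proteasome, so that HIF1A protein is itself a proteasome substrate. The targets include most glycolytic enzymes, the exporters of lactate, and secreted factors such as VEGFA. The question put to the libraries was whether transcripts of these targets were higher or lower under MG132. Only mRNA was measured, and no protein level or oxygen level enters any value below.

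Each library of the table summed to 1000000 TPM, with no read counts, so sequencing depth was unknown and no counting interval can be given. How the libraries are put on 1 scale decided many calls. The median-of-ratios factors were 0.617 to 0.684 in immortalized MG132 libraries and 0.688 to 0.766 in proliferating MG132 libraries, against 1.04 to 1.26 in the other 18 libraries. On that scale the median response of all genes to MG132 lay at -0.02 (quiescent), -0.03 (senescent), 0.01 (immortalized) and -0.02 (proliferating) on the log2 scale. On the TPM as deposited, the same medians were -0.18, -0.05, -0.57 and -0.48 in that order of cell-states. Log2 differences below are of log2(median-of-ratios scaled TPM + 1), tested with limma over all 13489 genes with Benjamini-Hochberg adjustment, and a gene is said to have risen or fallen where its adjusted p was under 0.05 on all 3 scales tried. For the MG132 responses, a gene that passed on the median-of-ratios scale but not on all 3 is named as such. Members that passed on the other 2 scales only are listed with the counts on those scales. A gene that passed on 1 of the other scales alone is not always named.

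The fibroblast label was checked against 10 marker genes, which summed to between 12836 and 33790 TPM. Vim, at 7513 to 25968 TPM, held a large part of each sum, and not every marker was high. Fap stayed at no more than 2.03 TPM. In immortalized libraries Dcn was at no more than 1.26 TPM and Lum at no more than 0.192 TPM. The sums under MG132 were lower than under DMSO, without overlap, in quiescent (16855 to 17417 against 30942 to 33790 TPM), immortalized (13969 to 17230 against 18383 to 21298 TPM) and proliferating fibroblasts (12836 to 15954 against 17877 to 27337 TPM), and overlapped in senescent ones (23403 to 26036 against 24463 to 29685 TPM). Summed markers of epithelium lay between 2.29 and 9.71 TPM, of endothelium between 0.276 and 7.50 TPM and of melanocytes between 1.38 and 6.70 TPM. Some of these markers moved with the treatment. The leukocyte list reached 98.6 TPM with Csf1r as a main part, Ptprc staying at no more than 0.0624 TPM and Adgre1 at no more than 0.269 TPM. In senescent fibroblasts Cd68 (mean 17.6 against 9.62 TPM) and Lyz2 (10.2 against 5.82 TPM) were higher under MG132 than under DMSO. In the other cell-states they did not share 1 direction, with Lyz2 lower under MG132 in proliferating fibroblasts (1.32 against 4.02 TPM). Csf1r averaged 25.1 against 6.59 TPM in quiescent, 60.1 against 13.1 TPM in senescent, 14.9 against 7.31 TPM in immortalized and 34.5 against 13.7 TPM in proliferating fibroblasts, MG132 against DMSO. Kdr of the endothelial list averaged 4.19 against 0.205 TPM in immortalized and 3.44 against 0.390 TPM in proliferating fibroblasts, MG132 against DMSO, with Cdh5 at no more than 0.537 TPM. The muscle list reached 541 TPM through Acta1, with Ckm at no more than 0.559 TPM. The proliferation marker Mki67 did not separate the vehicle-treated quiescent libraries (6.27 to 20.2 TPM) from the proliferating ones (2.11 to 17.8 TPM), whereas it was at 0.375 to 1.56 TPM in senescent ones. Top2a (19.9 to 56.8 against 7.55 to 41.2 TPM) and Lmnb1 (16.8 to 25.2 against 9.55 to 24.2 TPM) also overlapped between quiescent and proliferating DMSO libraries. Proliferating DMSO replicate 3 stood apart from its group in several members, and calls among the DMSO libraries that were lost without it are given with those comparisons. In bulk RNA, fewer cells expressing a gene and less of its RNA per cell cannot be told apart, and the part of other cell types in the results was not tested.

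The core of the hypoxia response element was looked for as ACGTG or GCGTG on either strand in RefSeq promoter windows (GRCm38.p6, 250 bases before to 50 after the start). A window was at hand for 34 of the 37 genes (Epas1, Plod2 and Ndrg1 had none), and 27 of the 34 (79.4%) held the core, beside 43.8% of all 27025 windows. With ACGTG alone the shares were 55.9% and 19.7%, and with the 250 upstream bases alone 79.4% and 38.6%. The 27025 windows were not matched to the members for expression or base content, so what lies behind the gap was not tested. A match is a run of letters and not a measured binding site. The 250 upstream bases of 4 genes are shown because 3 of them (Egln1, Pfkl and Slc16a3) fell under MG132 and Adm gave the largest increases of the list in senescent, immortalized and proliferating fibroblasts. Capitals mark the core, read on the printed strand or as its reverse complement.
Egln1, chr8:124949255-124949504, minus strand: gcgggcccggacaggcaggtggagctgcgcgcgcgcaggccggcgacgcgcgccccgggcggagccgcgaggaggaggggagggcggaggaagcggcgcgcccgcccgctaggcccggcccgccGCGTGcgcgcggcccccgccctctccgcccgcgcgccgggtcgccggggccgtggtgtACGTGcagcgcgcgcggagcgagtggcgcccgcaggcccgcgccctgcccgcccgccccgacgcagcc
Pfkl, chr10:78009808-78010057, minus strand: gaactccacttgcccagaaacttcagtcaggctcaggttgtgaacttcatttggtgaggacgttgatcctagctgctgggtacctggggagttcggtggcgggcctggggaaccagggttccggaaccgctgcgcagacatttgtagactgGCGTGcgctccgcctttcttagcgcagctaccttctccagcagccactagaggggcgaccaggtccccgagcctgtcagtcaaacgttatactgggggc
Slc16a3, chr11:120948817-120949066, plus strand: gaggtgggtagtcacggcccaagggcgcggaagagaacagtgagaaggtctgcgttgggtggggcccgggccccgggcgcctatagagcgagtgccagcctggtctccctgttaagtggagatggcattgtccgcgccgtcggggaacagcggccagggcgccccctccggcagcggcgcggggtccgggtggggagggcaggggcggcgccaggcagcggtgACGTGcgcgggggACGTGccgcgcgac
Adm, chr7:110627407-110627656, plus strand: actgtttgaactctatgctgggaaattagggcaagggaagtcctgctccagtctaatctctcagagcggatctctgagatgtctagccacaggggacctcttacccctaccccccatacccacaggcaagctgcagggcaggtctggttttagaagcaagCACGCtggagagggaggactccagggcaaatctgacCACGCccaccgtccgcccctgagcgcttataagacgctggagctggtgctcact
The printed windows of Egln1, Slc16a3 and Adm held 2 cores each and that of Pfkl held 1. The window of Vegfa that was searched held no match, which says only that these letters were not in that window.

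Under MG132 the list did not move 1 way. Quiescent fibroblasts had 7 of the 37 genes rising and 14 falling. The counts were 8 and 8 in senescent, 5 and 9 in immortalized, and 4 and 8 in proliferating fibroblasts. Over all genes tested, the same rule called 17.8% higher and 26.9% lower in quiescent, 18% and 22.9% in senescent, 7.63% and 26.6% in immortalized and 8.21% and 24.8% in proliferating fibroblasts. The members' counts were thus near the background in most comparisons, and they were farthest from it for the falls in quiescent fibroblasts. Vegfa was the only member that rose in all 4 cell-states (2.05% of all genes did), and Egln1, Pfkl and Slc16a3 fell in all 4 (7.41% of all genes did).

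**Figure D1:**
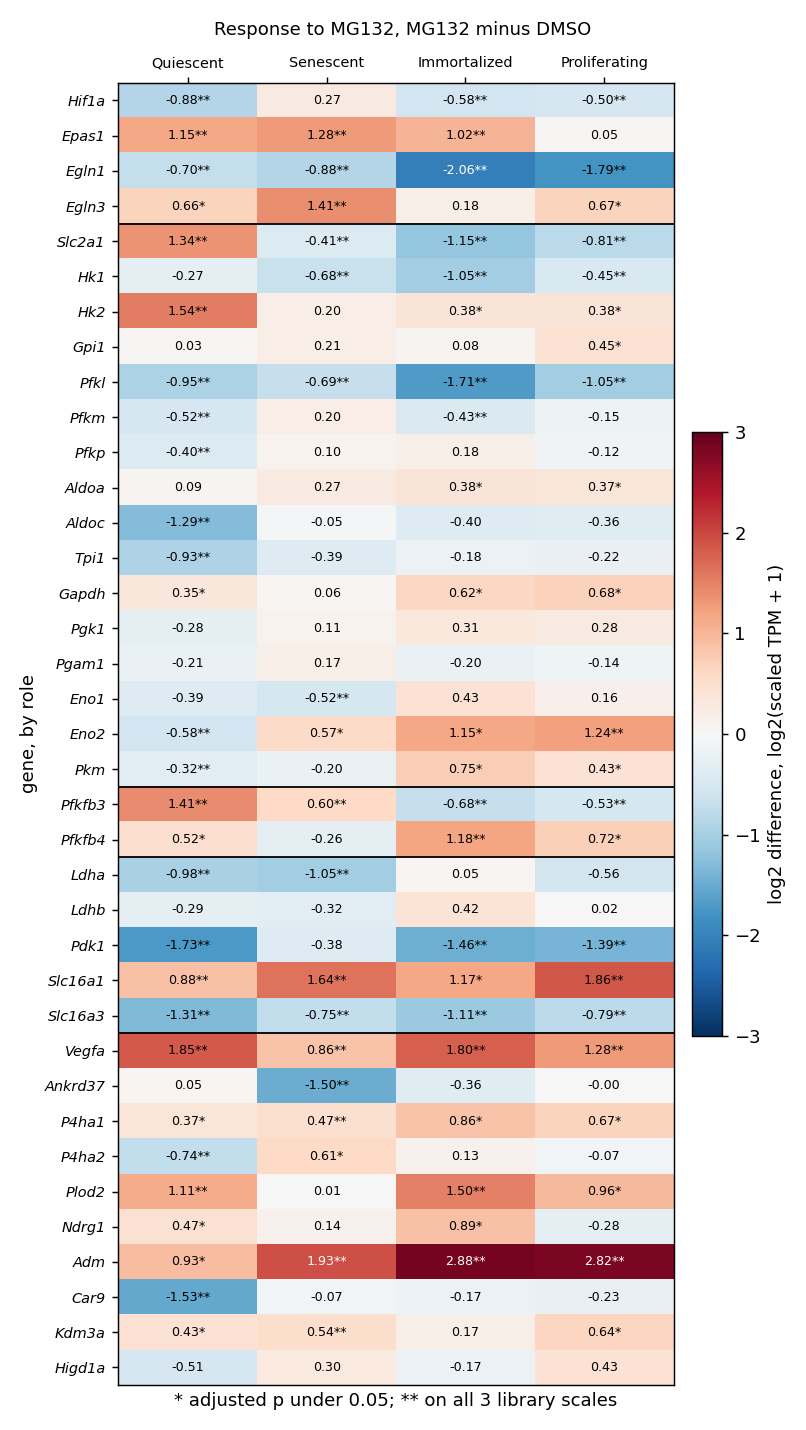
Log2 difference between MG132 and DMSO of the 37 genes (rows, by role) in the 4 cell-states (columns), 3 libraries a group; 1 asterisk marks an adjusted p under 0.05 on the median-of-ratios scale and 2 asterisks the same call on all 3 scales. Vegfa is red with 2 asterisks in every column, Egln1, Pfkl and Slc16a3 are blue with 2 asterisks in every column, and Slc2a1 is red in quiescent fibroblasts at 1.34 and blue in the other columns.

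On the median-of-ratios scale by itself, 14 members passed higher and 14 lower in quiescent fibroblasts (25.3% and 26.9% of all genes), 10 and 8 in senescent (22.7% and 23.4%), 13 and 9 in immortalized (26.6% and 26.6%) and 14 and 8 in proliferating (25.2% and 24.8%). With the TPM as deposited the counts became 7 higher and 19 lower, 10 and 9, 5 and 21, and 4 and 20 in that order of cell-states, and all genes shifted with them (17.9% and 35.4%, 22% and 24%, 7.64% and 56.5%, 8.38% and 53.2%). With the scaling to a fixed library sum undone they were 8 and 15, 8 and 9, 6 and 20, and 4 and 17, beside 19.5% and 29.6%, 18.1% and 26.3%, 8.49% and 52.2%, and 8.5% and 48.9% of all genes. Members lower on both of these scales, but not on the median-of-ratios scale, were Hk1 in quiescent and Tpi1 in senescent fibroblasts. In immortalized fibroblasts they were Gpi1, Pfkp, Aldoc, Tpi1, Pgk1, Pgam1, Ldha, Ankrd37, P4ha2, Kdm3a and Higd1a. In proliferating ones they were Pfkm, Pfkp, Aldoc, Tpi1, Pgam1, Ldha, Ldhb, P4ha2 and Ndrg1. The median log2 response of the 37 genes was -0.27 in quiescent, 0.11 in senescent, 0.17 in immortalized and 0.02 in proliferating fibroblasts on the median-of-ratios scale, and -0.46, 0.10, -0.54 and -0.46 on the deposited TPM. A change of scale divides every gene of a library by the same factor. The members' median and that of all genes therefore shift together by construction, as the plot of the 3 scales shows. That joint shift is not a result about the members.

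**Figure D2:**
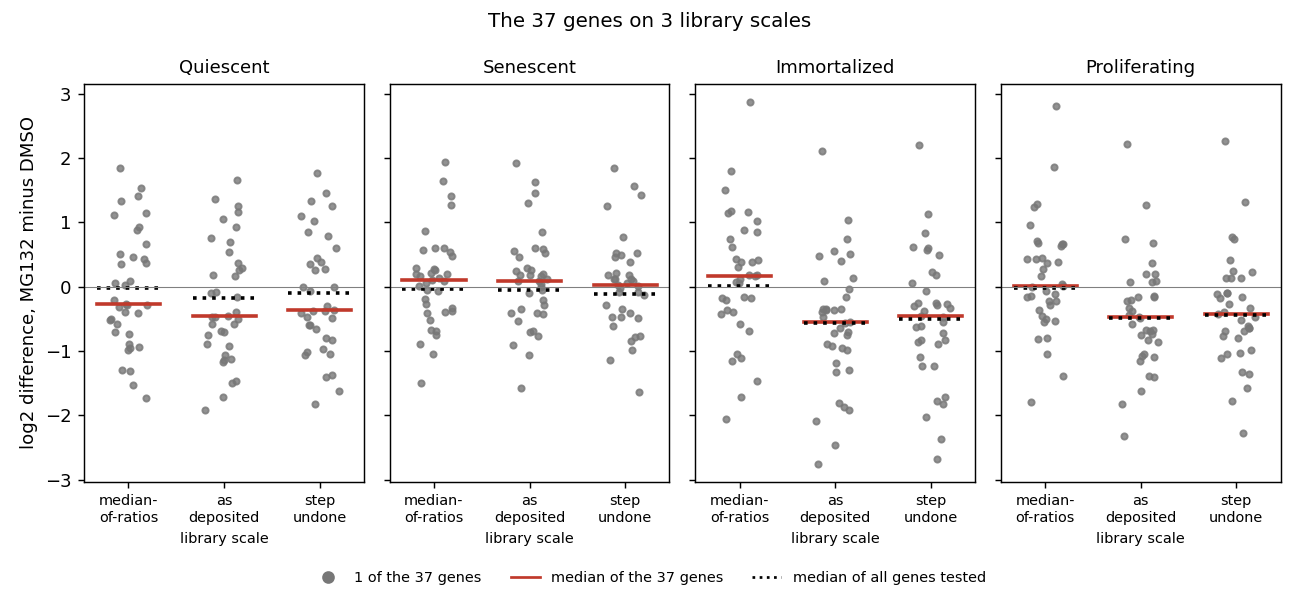
Log2 difference between MG132 and DMSO (vertical axis) of each of the 37 genes (grey points) on 3 library scales (horizontal axis), 1 panel a cell-state; the red line is the median of the 37 genes and the dotted line that of all genes tested. The red and dotted lines drop together from the median-of-ratios to the deposited scale in immortalized (from 0.17 and 0.01 to -0.54 and -0.57) and proliferating fibroblasts, and hardly move in senescent ones. The joint drop follows by construction, since a change of scale divides all genes of a library by the same factor.

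Of the oxygen sensors and HIF alpha subunits, Egln1 fell in all 4 cell-states and Hif1a in 3, whereas Epas1 rose in 3 and Egln3 in 1. Egln1, the main oxygen-dependent hydroxylase of HIF1A, fell in every cell-state, and most in immortalized and proliferating fibroblasts. It stood at 29.7, 23.6 and 23.3 TPM in quiescent MG132 libraries, against 45.5, 47.9 and 50.2 TPM in quiescent DMSO libraries, and at 21.1, 19.5 and 18.7 TPM in senescent MG132, against 42.5, 35.7 and 35.5 TPM in senescent DMSO. In immortalized fibroblasts it was at 6.42, 4.89 and 5.83 TPM under MG132, against 37.8, 51.3 and 43.8 TPM under DMSO. In proliferating fibroblasts it was at 5.10, 6.23 and 6.78 TPM under MG132, against 34.4, 31.2 and 37.0 TPM under DMSO. No MG132 library reached the lowest DMSO library of its cell-state. The log2 differences were -0.70 ± 0.15 (SE, adjusted p = 0.00058), -0.88 ± 0.15 (6.9e-05), -2.06 ± 0.15 (9.3e-10) and -1.79 ± 0.15 (2.2e-08) in quiescent, senescent, immortalized and proliferating fibroblasts.

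Egln3, the hydroxylase that hypoxia itself induces, rose in senescent fibroblasts to 5.93, 5.36 and 5.96 TPM under MG132, against 1.24, 1.05 and 2.26 TPM under DMSO (log2 difference 1.41 ± 0.27, adjusted p = 0.00027). In quiescent (0.66) and proliferating fibroblasts (0.67) it passed on the median-of-ratios scale alone, and its value in immortalized fibroblasts was 0.18. The quiescent call was lost without any single library but Quiescent MG132 replicate 1 (adjusted p = 0.066 to 0.13), and the proliferating call without any but Proliferating DMSO replicate 3 (0.054 to 0.21). That replicate had 6.30 TPM of Egln3, beside 2.37 and 2.32 TPM in the other Proliferating DMSO libraries.

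Hif1a, which encodes the oxygen-labile subunit, did not rise in any cell-state. It was at 53.4, 51.9 and 46.8 TPM in quiescent MG132 libraries, against 116, 90.0 and 117 TPM in quiescent DMSO libraries, a fall of the log2 level of -0.88 ± 0.15 (adjusted p = 0.0001). Immortalized MG132 libraries held 23.3, 15.4 and 19.3 TPM, against 46.1, 47.4 and 54.6 TPM under DMSO (-0.58 ± 0.15, adjusted p = 0.0036). Both pairs of groups were separate. In proliferating fibroblasts it was lower by -0.50 ± 0.15 (adjusted p = 0.011), a call lost without Proliferating MG132 replicate 1 (-0.40, adjusted p = 0.063). Senescent fibroblasts gave 64.2, 53.7 and 51.9 TPM under MG132, against 35.3, 46.9 and 62.5 TPM under DMSO, ranges that overlapped (0.27 ± 0.15, adjusted p = 0.16).

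Epas1, the alpha subunit with a narrower set of cell types, was at low level throughout and rose in 3 cell-states. Quiescent libraries held 3.91, 6.03 and 5.36 TPM under MG132, against 2.21, 1.35 and 2.28 TPM under DMSO (log2 difference 1.15 ± 0.21, adjusted p = 0.00017). Senescent libraries held 7.87, 6.88 and 7.50 TPM, against 1.41, 2.58 and 3.58 TPM (1.28 ± 0.21, adjusted p = 6.5e-05). In immortalized fibroblasts the difference was 1.02 ± 0.21 (adjusted p = 0.00042), with 1.01 TPM in the lowest MG132 library and 1.12 TPM in the highest DMSO library. Proliferating fibroblasts, which had the highest vehicle level (5.86 to 7.79 TPM), gave 4.20, 6.16 and 4.04 TPM under MG132 and a difference of 0.05 (adjusted p = 0.88). The ratio of Epas1 to Hif1a within a library needs no scaling. It averaged 0.101 against 0.0178 in quiescent, 0.132 against 0.0507 in senescent, 0.0825 against 0.0156 in immortalized and 0.173 against 0.116 in proliferating fibroblasts, MG132 against DMSO.

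**Figure D3:**
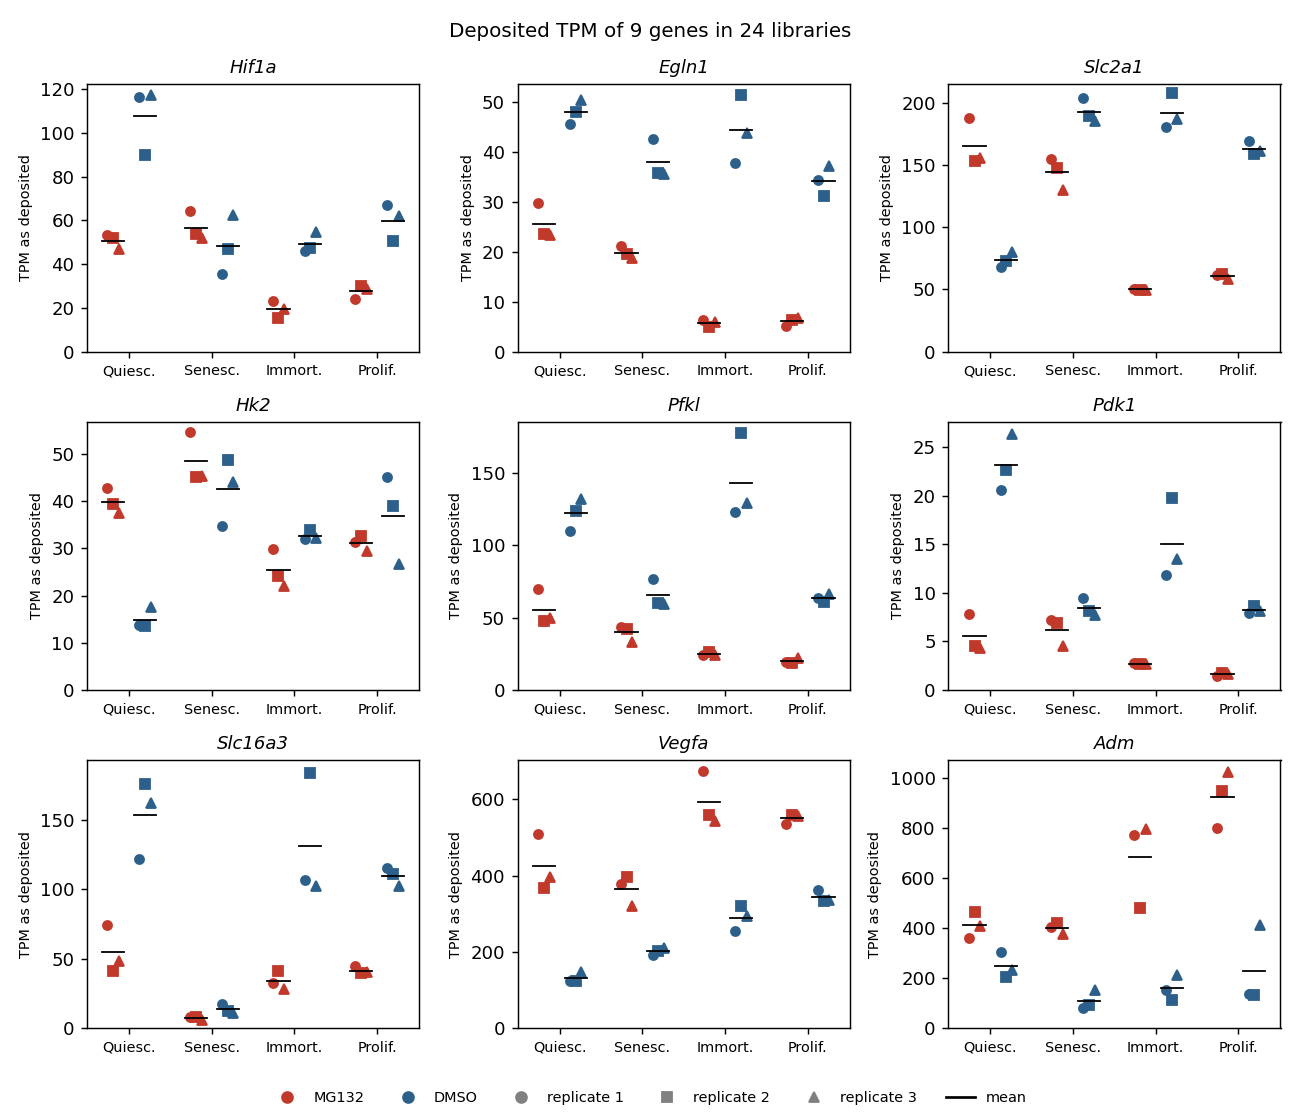
Deposited TPM (vertical axis, from 0) of 9 genes in each of the 24 libraries, by cell-state (horizontal axis), with MG132 in red left of DMSO in blue, the replicate given by the symbol and the group mean by a line. Red points of Egln1, Pfkl and Slc16a3 lie below the blue points and those of Vegfa above them in each cell-state, while Slc2a1 and Hk2 have their lowest blue points in quiescent fibroblasts (67.7 to 79.9 and 13.5 to 17.5 TPM).

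Slc2a1 rose in quiescent fibroblasts and fell in the other 3 cell-states. Slc2a1, the glucose transporter GLUT1, was at 187, 153 and 155 TPM in quiescent MG132 libraries, against 67.7, 72.6 and 79.9 TPM in quiescent DMSO libraries. In immortalized fibroblasts it was at 50, 49.9 and 49.8 TPM under MG132, against 180, 207 and 187 TPM under DMSO, and in proliferating fibroblasts at 61.9, 62.2 and 58.7 TPM, against 169, 159 and 161 TPM. Senescent libraries lay between, at 155, 148 and 130 TPM under MG132, against 204, 189 and 185 TPM under DMSO. The libraries did not overlap in any of the 4 pairs. Slc2a1 rose by 1.34 ± 0.10 in quiescent fibroblasts (adjusted p = 5.7e-09), and its log2 differences were -0.41 ± 0.10 (0.0032) in senescent, -1.15 ± 0.10 (1.7e-08) in immortalized and -0.81 ± 0.10 (3.2e-06) in proliferating fibroblasts, falls on all 3 scales.

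Hexokinases trap glucose in the cell as its 6-phosphate. Hk2, the inducible form, was at 42.8, 39.4 and 37.5 TPM in quiescent MG132 libraries, against 13.7, 13.5 and 17.5 TPM in quiescent DMSO libraries, a rise of 1.54 ± 0.13 (adjusted p = 2.6e-08). Its values in immortalized and proliferating fibroblasts (0.38 in each) passed on the median-of-ratios scale and had the opposite sign on the other 2 scales, and in senescent fibroblasts it was 0.20. The immortalized call was lost without Immortalized DMSO replicate 1 (adjusted p = 0.054) or 3 (0.069) or MG132 replicate 1 (0.093), and the proliferating call without Proliferating DMSO replicate 3 (0.16) or MG132 replicate 1 (0.051) or 3 (0.052). Hk1, the housekeeping form, fell in senescent (-0.68 ± 0.12, adjusted p = 9.5e-05), immortalized (-1.05 ± 0.12, 3.4e-07) and proliferating fibroblasts (-0.45 ± 0.12, 0.0031), and was -0.27 in quiescent ones (0.055). Within each library the ratio of Hk2 to Hk1 was higher under MG132 than under DMSO in all 4 cell-states. It averaged 0.709 against 0.191 in quiescent, 0.960 against 0.517 in senescent, 0.995 against 0.359 in immortalized and 1.06 against 0.588 in proliferating fibroblasts.

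Among the phosphofructokinase subunits, which catalyse the first step committed to glycolysis, the liver-type subunit Pfkl fell throughout. It was at 69.6, 47.5 and 49.7 TPM in quiescent MG132 libraries against 110, 124 and 132 TPM under DMSO, and at 43.8, 42.0 and 33.4 TPM in senescent ones against 76.8, 60.3 and 59.3 TPM. Immortalized libraries held 24.2, 26.2 and 24.2 TPM against 123, 177 and 129 TPM, and proliferating libraries held 19.2, 18.6 and 21.8 TPM against 63.3, 60.8 and 66.1 TPM. MG132 and DMSO libraries were separate in every cell-state, and the widest gap was in immortalized fibroblasts. The log2 differences were -0.95 ± 0.17 (adjusted p = 0.00015), -0.69 ± 0.17 (0.0029), -1.71 ± 0.17 (1e-07) and -1.05 ± 0.17 (5.6e-05) in quiescent, senescent, immortalized and proliferating fibroblasts. The muscle-type Pfkm fell in quiescent (-0.52 ± 0.16, adjusted p = 0.0093) and immortalized fibroblasts (-0.43 ± 0.16, 0.026), and the platelet-type Pfkp fell in quiescent ones (-0.40 ± 0.10, 0.0027). The quiescent call of Pfkm was lost without Quiescent DMSO replicate 1 (-0.39, adjusted p = 0.060), and its immortalized call without Immortalized DMSO replicate 1 (0.14), DMSO replicate 3 (0.067) or MG132 replicate 2 (0.13).

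Among the abundant enzymes of the lower pathway, Eno1 fell in senescent and Pkm in quiescent fibroblasts, while several other differences, such as that of Gapdh in immortalized fibroblasts, turned with the scale. Eno1, an enolase and the most abundant member, was at 6287, 5007 and 5332 TPM in quiescent MG132 libraries, against 7393, 9075 and 8256 TPM under DMSO, and at 3887, 3856 and 3617 TPM in senescent ones, against 6932, 5325 and 4496 TPM. It fell in senescent fibroblasts (-0.52 ± 0.20, adjusted p = 0.034), a call lost when any 1 of the 6 libraries but Senescent DMSO replicate 3 was left out (0.051 to 0.21). Gapdh, which oxidises glyceraldehyde 3-phosphate, passed higher on the median-of-ratios scale in quiescent (0.35), immortalized (0.62) and proliferating fibroblasts (0.68), and was 0.16, -0.16 and 0.08 on the deposited TPM. As deposited, it was at 2284, 2275 and 2161 TPM in proliferating MG132 libraries, against 1894, 2081 and 2409 TPM under DMSO, which overlapped. The quiescent call of Gapdh was lost without any library but Quiescent DMSO replicate 2 (adjusted p = 0.060 to 0.12). Pkm, pyruvate kinase, fell in quiescent fibroblasts by -0.32 ± 0.12 (adjusted p = 0.034), a call lost without any library but Quiescent DMSO replicate 1 (0.058 to 0.093), and passed higher in immortalized (0.75) and proliferating fibroblasts (0.43) on the median-of-ratios scale, where the deposited TPM gave -0.03 and -0.17.

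Tpi1, the triose phosphate isomerase, fell in quiescent fibroblasts, to 387, 291 and 326 TPM under MG132, against 659, 803 and 711 TPM under DMSO (-0.93 ± 0.16, adjusted p = 9.3e-05). In senescent, immortalized and proliferating fibroblasts Tpi1 passed lower on the deposited TPM and with the fixed library sum undone, but not on the median-of-ratios scale. The aldolase Aldoc, a minor form here at no more than 6.09 TPM, also fell in quiescent fibroblasts (-1.29 ± 0.20, 3.1e-05). Aldoa, the main aldolase, passed on the median-of-ratios scale in immortalized (0.38) and proliferating fibroblasts (0.37) and was -0.39 and -0.23 on the deposited TPM, both past the threshold there. Its proliferating call was lost without Proliferating DMSO replicate 1 (0.30, adjusted p = 0.058). Gpi1, the isomerase between hexokinase and phosphofructokinase, passed in proliferating fibroblasts (0.45) on that scale and was -0.15 on the deposited TPM. Pgk1, the phosphoglycerate kinase, and Pgam1, the mutase after it, passed in no cell-state on the median-of-ratios scale, with values of -0.28 to 0.31 and of -0.21 to 0.17. Both passed lower on the deposited TPM in quiescent, immortalized and proliferating fibroblasts. With the sum undone, both passed lower in immortalized fibroblasts and Pgam1 in proliferating ones. Eno2, the neuronal enolase, went 2 ways: it rose in proliferating fibroblasts (5.47, 6.29 and 5.01 TPM under MG132, against 3.64, 1.95 and 3.47 TPM under DMSO, 1.24 ± 0.21, adjusted p = 8.3e-05) and fell in quiescent ones (4.36, 6.39 and 6.12 TPM against 12.2, 8.70 and 9.57 TPM, -0.58 ± 0.21, 0.029). The quiescent call was lost without Quiescent DMSO replicate 1 (0.12) or MG132 replicate 1 (0.14). In senescent (0.57) and immortalized fibroblasts (1.15) Eno2 did not pass on every scale, and the senescent call was lost without any library but Senescent DMSO replicate 3 (adjusted p = 0.060 to 0.17). Reads of Gapdh, Eno1, Pgam1, Tpi1, Pgk1, Ldha and Aldoa can be divided with near-identical pseudogene copies, and the study's methods name kallisto with default settings, which shares such reads between transcripts by estimate.

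As a share of all TPM, the 15 glycolytic enzymes of the list were lower under MG132 than under DMSO in the means of every cell-state. They made up 1.35 ± 0.083% against 1.77 ± 0.096% in quiescent, 1.24 ± 0.043% against 1.41 ± 0.18% in senescent, 1.40 ± 0.14% against 1.79 ± 0.090% in immortalized and 1.12 ± 0.055% against 1.39 ± 0.061% in proliferating fibroblasts (SD, n = 3). Eno1 held the greatest part of each sum, with 0.554% against 0.824% in quiescent fibroblasts. In senescent fibroblasts the shares of single libraries overlapped (1.2 to 1.28% against 1.27 to 1.61%). A share of TPM depends on all other transcripts, so these values are those of the deposited scale only.

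The bifunctional enzymes that set fructose 2,6-bisphosphate, the strongest activator of phosphofructokinase, split between cell-states. Pfkfb3, the form with high kinase activity, was at 18.7, 21.6 and 19.4 TPM in quiescent MG132 libraries, against 9.60, 5.69 and 8.45 TPM under DMSO (1.41 ± 0.19, adjusted p = 5.3e-06). Proliferating libraries showed the reverse, with 9.67, 12.3 and 9.77 TPM under MG132, against 23.1, 20.1 and 28.2 TPM under DMSO (-0.53 ± 0.19, adjusted p = 0.023). Both pairs of groups were separate, and the deposited TPM gave the same directions. Pfkfb3 also rose in senescent fibroblasts (0.60 ± 0.19, 0.013) and fell in immortalized ones (-0.68 ± 0.19, 0.0044). The senescent call was lost without Senescent DMSO replicate 1 (0.072) or 2 (0.058), and the proliferating call without Proliferating DMSO replicate 3 (0.12) or MG132 replicate 1 (0.079) or 3 (0.059). Pfkfb4, a related form, rose in immortalized fibroblasts (6.80, 4.53 and 5.81 TPM under MG132, against 4.18, 2.61 and 4.36 TPM under DMSO, 1.18 ± 0.16, adjusted p = 3.7e-06), and its values in quiescent (0.52), senescent (-0.26) and proliferating fibroblasts (0.72) did not pass on all 3 scales. The ratio of Pfkfb3 to Pfkfb4 within a library averaged 2.75 against 1.45 in quiescent and 1.03 against 0.542 in senescent fibroblasts, but 0.504 against 2.37 in immortalized and 1.63 against 4.35 in proliferating fibroblasts, MG132 against DMSO.

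In the branch from pyruvate to lactate, both lactate transporters changed, in opposite directions. Slc16a3 encodes MCT4, the exporter of glycolytic cells, and Slc16a1 encodes MCT1, which carries lactate either way. Slc16a3 was at 74.2, 41.2 and 48.6 TPM in quiescent MG132 libraries, against 122, 176 and 162 TPM under DMSO, and at 7.99, 8.09 and 6.21 TPM in senescent ones, against 17.6, 12.3 and 10.8 TPM. Immortalized libraries held 32.8, 41.5 and 28.5 TPM, against 107, 184 and 103 TPM, and proliferating ones held 44.7, 39.7 and 40.2 TPM, against 115, 111 and 102 TPM. MG132 and DMSO libraries did not overlap. The falls were -1.31 ± 0.24 (adjusted p = 0.00019), -0.75 ± 0.24 (0.017), -1.11 ± 0.24 (0.00072) and -0.79 ± 0.24 (0.011) in quiescent, senescent, immortalized and proliferating fibroblasts. The senescent call was lost without Senescent DMSO replicate 1 (-0.51, adjusted p = 0.11) or MG132 replicate 3 (-0.64, 0.069).

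Slc16a1 was at 59.4, 46.4 and 44.3 TPM in quiescent MG132 libraries, against 32.7, 26.9 and 31.4 TPM under DMSO, and at 54.9, 52.0 and 42.4 TPM in senescent ones, against 12.8, 14.5 and 18.9 TPM. Proliferating libraries held 62.2, 68.4 and 76.5 TPM, against 25.7, 20.2 and 41.7 TPM. In these 3 cell-states the groups were separate and Slc16a1 rose, by 0.88 ± 0.21 (adjusted p = 0.0019), 1.64 ± 0.21 (4e-06) and 1.86 ± 0.21 (8.9e-07). In immortalized fibroblasts the groups overlapped (75.9, 54.1 and 68.1 TPM against 39.8, 54.5 and 54.6 TPM), and the difference of 1.17 passed on the median-of-ratios scale only. Within a library, the ratio of Slc16a1 to Slc16a3 averaged 0.946 against 0.205 in quiescent, 6.70 against 1.22 in senescent, 2.0 against 0.400 in immortalized and 1.67 against 0.271 in proliferating fibroblasts. Each MG132 library lay above each DMSO library of its cell-state in that ratio, as the plot of ratios shows.

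**Figure D4:**
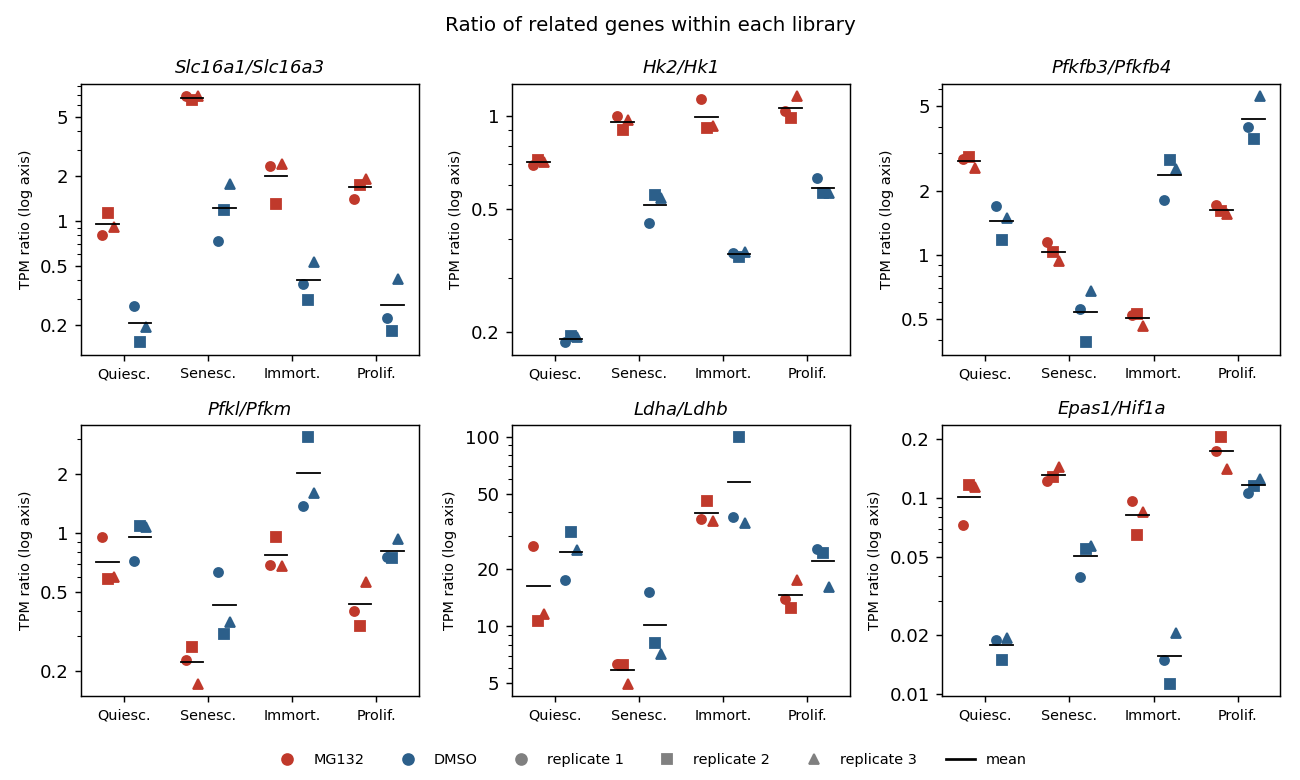
TPM ratio of 6 pairs of related genes within each of the 24 libraries (log axis), by cell-state, with MG132 in red left of DMSO in blue, the replicate given by the symbol and the group mean by a line. Red points lie above blue points in each cell-state for Slc16a1/Slc16a3 and Hk2/Hk1, whereas Pfkfb3/Pfkfb4 is higher under MG132 in quiescent and senescent and lower in immortalized and proliferating fibroblasts.

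Pdk1, the kinase that shuts pyruvate out of the mitochondrial dehydrogenase and a standard HIF1A target, fell in 3 cell-states. It was at 7.80, 4.48 and 4.35 TPM in quiescent MG132 libraries, against 20.6, 22.6 and 26.4 TPM under DMSO (-1.73 ± 0.20, adjusted p = 8.9e-07). Immortalized libraries held 2.75, 2.69 and 2.67 TPM, against 11.8, 19.8 and 13.5 TPM (-1.46 ± 0.20, 3.7e-06), and proliferating ones 1.47, 1.70 and 1.67 TPM, against 7.95, 8.62 and 8.09 TPM (-1.39 ± 0.20, 9.9e-06). Senescent libraries held 7.22, 6.84 and 4.57 TPM against 9.49, 8.08 and 7.73 TPM, with a difference that did not pass (-0.38 ± 0.20, 0.12). Ldha, the lactate dehydrogenase subunit favoured by hypoxia, fell in quiescent (1454, 951 and 1049 TPM against 2155, 2994 and 2542 TPM, -0.98 ± 0.25, 0.0026) and senescent fibroblasts (762, 762 and 696 TPM against 2264, 1385 and 1172 TPM, -1.05 ± 0.25, 0.0017). On the median-of-ratios scale it was 0.05 in immortalized and -0.56 in proliferating fibroblasts, and the immortalized sign turned on the other 2 scales. Ldhb, the other subunit, passed nowhere on that scale (-0.32 to 0.42).

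The other hypoxia-response targets held the largest increases. Vegfa, the secreted angiogenic factor, was at 508, 367 and 397 TPM in quiescent MG132 libraries, against 125, 125 and 146 TPM under DMSO, and at 378, 395 and 321 TPM in senescent ones, against 192, 201 and 210 TPM. Immortalized libraries held 676, 559 and 544 TPM, against 256, 320 and 293 TPM, and proliferating ones 535, 560 and 557 TPM, against 361, 333 and 336 TPM. The groups were separate in every cell-state without any scaling. The log2 differences were 1.85 ± 0.12 (adjusted p = 3.3e-10), 0.86 ± 0.12 (6.9e-06), 1.80 ± 0.12 (2.2e-10) and 1.28 ± 0.12 (7.3e-08) in quiescent, senescent, immortalized and proliferating fibroblasts.

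Adm, the precursor of the vasodilator adrenomedullin, rose most in immortalized and proliferating fibroblasts. It was at 773, 481 and 798 TPM in immortalized MG132 libraries, against 152, 113 and 215 TPM under DMSO (2.88 ± 0.34, adjusted p = 6.6e-07), and at 801, 950 and 1026 TPM in proliferating ones, against 139, 134 and 411 TPM (2.82 ± 0.34, 1.6e-06). Senescent libraries held 406, 420 and 376 TPM, against 82.4, 91.1 and 154 TPM (1.93 ± 0.34, 0.00011). The value of 411 TPM belongs to Proliferating DMSO replicate 3. In quiescent fibroblasts Adm was at 363, 465 and 411 TPM, against 305, 205 and 232 TPM, and 0.93 ± 0.34 passed on 2 of the 3 scales (adjusted p = 0.026). That call was lost without Quiescent DMSO replicate 2 or 3 or MG132 replicate 2 or 3 (adjusted p = 0.056 to 0.084).

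Collagen-modifying enzymes, which HIF1A induces in fibroblasts, followed several patterns. Plod2, a lysyl hydroxylase, rose in quiescent (113, 129 and 112 TPM against 69.2, 51.3 and 65.0 TPM, 1.11 ± 0.18, adjusted p = 3.7e-05) and immortalized fibroblasts (99.3, 60.6 and 83.6 TPM against 47.6, 40.1 and 55.4 TPM, 1.5 ± 0.18, 6.5e-07). It was 0.01 in senescent fibroblasts and 0.96 in proliferating ones, where it passed on the median-of-ratios scale only. P4ha1, a prolyl hydroxylase subunit, passed in all 4 cell-states on that scale (0.37 to 0.86) but rose on all 3 scales in senescent fibroblasts alone (204, 189 and 169 TPM against 121, 133 and 156 TPM, 0.47 ± 0.11, 0.0015). P4ha2, the alternative subunit, fell in quiescent fibroblasts (469, 675 and 580 TPM against 1311, 884 and 1083 TPM, -0.74 ± 0.19, 0.0034). In senescent fibroblasts P4ha2 passed higher on 2 of the 3 scales (0.61), a call lost without Senescent DMSO replicate 1 (0.44, adjusted p = 0.089).

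Car9, a carbonic anhydrase and a widely used hypoxia marker, was highest in vehicle-treated quiescent fibroblasts and fell there, to 1.64, 2.67 and 1.76 TPM under MG132, against 12.3, 6.24 and 8.89 TPM under DMSO (-1.53 ± 0.37, adjusted p = 0.0019). Ankrd37, a small ankyrin-repeat target, fell in senescent fibroblasts (0.966, 1.48 and 2.35 TPM against 9.56, 5.42 and 5.28 TPM, -1.5 ± 0.25, 5.8e-05). Kdm3a, a histone demethylase, rose in senescent fibroblasts (19.1, 21.2 and 18.8 TPM against 10.2, 13.8 and 16.8 TPM, 0.54 ± 0.14, 0.0032). In immortalized fibroblasts it was 0.17 on the median-of-ratios scale and passed lower on the other 2 scales. Its values in quiescent (0.43, lost without Quiescent DMSO replicate 2, 0.090) and proliferating fibroblasts (0.64) passed on the median-of-ratios scale alone. Ndrg1, a stress-response gene, passed on that scale alone in quiescent (0.47) and immortalized fibroblasts (0.89), and its quiescent call was lost without Quiescent DMSO replicate 1 (0.12) or 2 (0.071) or MG132 replicate 1 (0.21). In proliferating fibroblasts Ndrg1 was at 16.0, 15.6 and 15.4 TPM under MG132, against 27.9, 28.6 and 30.9 TPM under DMSO, and passed lower on the deposited TPM (-0.85) and with the fixed library sum undone (-0.80) but not on the median-of-ratios scale (-0.28). Higd1a, a mitochondrial protein of the hypoxia response, passed in no cell-state on the median-of-ratios scale (-0.51 to 0.43). It passed lower on the deposited TPM in quiescent (-0.69) and immortalized fibroblasts (-0.92), and in immortalized ones also with the sum undone (-0.83).

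Before treatment, the cell-states already differed in these genes. Against proliferating fibroblasts under DMSO, 11 members were higher and 7 lower in quiescent fibroblasts on all 3 scales (14.5% and 10.1% of all genes), 8 higher and 8 lower in senescent (21% and 10.5%), and 9 higher and 4 lower in immortalized fibroblasts (17.4% and 14.4%). Of these counts, the higher members in senescent and the lower members in immortalized fibroblasts were near the background. None of the counts was tested against it. With 1 library left out, the members higher in immortalized fibroblasts on the median-of-ratios scale ranged from 6 to 13. On the median-of-ratios scale the counts were 12 and 7 (15.5% and 14.7% of all genes), 8 and 10 (21% and 19.8%), and 9 and 7 (18% and 17.7%). The members' median was 0.22 in quiescent, -0.04 in senescent and 0.20 in immortalized fibroblasts, beside medians of all genes of 0.01, -0.01 and 0.02. Counts in senescent fibroblasts against proliferating ones are read with backgrounds of 23.5% higher and 16.7% lower on the deposited TPM, and 29.9% and 10.5% with the fixed library sum undone. All 3 comparisons share the Proliferating DMSO libraries. The 10 members lower in senescent fibroblasts became 6 without Proliferating DMSO replicate 3, whose removal gave log2 differences of -0.42 for Adm (adjusted p = 0.21), -0.45 for Egln3 (0.13), -0.40 for Aldoc (0.052) and -0.35 for Hif1a (0.125). Without it, the calls of Hk1 (0.18, adjusted p = 0.20) and Kdm3a (0.37, 0.070) as higher in senescent fibroblasts were lost too. So were those of Ndrg1 in quiescent fibroblasts (-0.50, adjusted p = 0.076) and of Pkm (0.31, 0.056), Ankrd37 (0.63, 0.093), Ldhb (-0.43, 0.14) and Pfkp (-0.27, 0.064) in immortalized ones.

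**Figure D5:**
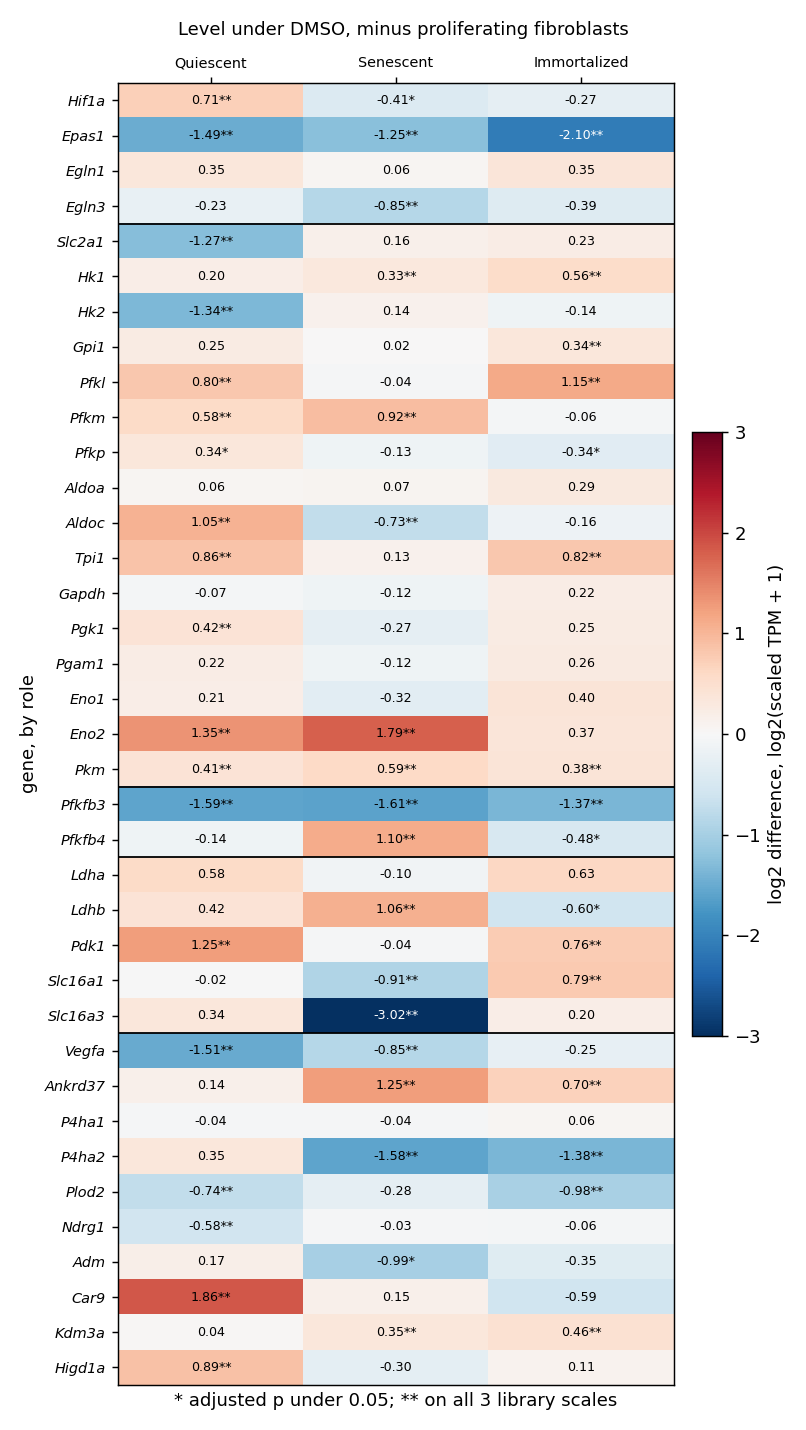
Log2 difference in level under DMSO between each of 3 cell-states and proliferating fibroblasts for the 37 genes (rows, by role); asterisks as adjusted p under 0.05 on the median-of-ratios scale (1) and on all 3 scales (2). Epas1 and Pfkfb3 are blue in all 3 columns, Slc16a3 is dark blue in senescent fibroblasts at -3.02, and Car9 is red in quiescent fibroblasts at 1.86.

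Vehicle-treated quiescent fibroblasts had less Slc2a1 and Hk2 and more of several enzymes than proliferating ones. Slc2a1 was at 67.7 to 79.9 TPM in quiescent DMSO libraries, against 159 to 169 TPM in proliferating DMSO libraries (-1.27 ± 0.10, adjusted p = 2.6e-08), and Hk2 at 13.5 to 17.5 TPM, against 26.7 to 45.1 TPM (-1.34 ± 0.13, 3.1e-07). Vegfa was lower by -1.51 ± 0.12 (1.4e-08), with 125 to 146 TPM against 333 to 361 TPM. Plod2 (-0.74), Pfkfb3 (-1.59) and Epas1 (-1.49) were lower as well. Higher in quiescent fibroblasts were Car9 (6.24 to 12.3 TPM against 0.531 to 3.84 TPM, 1.86 ± 0.37, adjusted p = 0.0008), Pdk1 (20.6 to 26.4 TPM against 7.95 to 8.62 TPM, 1.25 ± 0.20, 8.4e-05), Hif1a (0.71 ± 0.15, 0.0017), Pfkl (0.80), Tpi1 (0.86), Aldoc (1.05) and Eno2 (1.35). Higd1a was at 77.3, 68.5 and 59.6 TPM in quiescent libraries, against 24.9, 23.7 and 60.7 TPM in proliferating ones (0.89, adjusted p = 0.017), and its call was lost without Proliferating DMSO replicate 1 or 2 or Quiescent DMSO replicate 1 or 2 (0.051 to 0.097).

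Senescent fibroblasts were marked by little Slc16a3, at 17.6, 12.3 and 10.8 TPM, against 115, 111 and 102 TPM in proliferating ones (-3.02 ± 0.24, adjusted p = 1.1e-08). P4ha2 (200, 304 and 336 TPM against 720, 669 and 964 TPM, -1.58 ± 0.19, 2.3e-06), Pfkfb3 (-1.61), Epas1 (-1.25), Slc16a1 (-0.91) and Vegfa (-0.85) were lower too. Ldhb (150, 169 and 165 TPM against 61.5, 70.7 and 86.5 TPM, 1.06 ± 0.20, 0.00037), Eno2 (1.79), Ankrd37 (1.25), Pfkfb4 (1.1), Pfkm (0.92) and Pkm (0.59) were higher. Immortalized fibroblasts had more Pfkl (123, 177 and 129 TPM against 63.3, 60.8 and 66.1 TPM, 1.15 ± 0.17, 5.1e-05), Tpi1 (0.82), Pdk1 (0.76) and Hk1 (0.56). Their lowest members relative to proliferating fibroblasts were Epas1 (0.690, 0.539 and 1.12 TPM against 7.16, 5.86 and 7.79 TPM, -2.10 ± 0.21, 5.1e-07), P4ha2 (-1.38), Pfkfb3 (-1.37) and Plod2 (-0.98). The Pdk1 call was lost without Immortalized DMSO replicate 2 (0.52, adjusted p = 0.052), the library with the highest Pfkl, Pdk1 and Slc16a3 of its group.

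The responses themselves were then compared between cell-states with interaction terms. Quiescent and senescent fibroblasts, pooled as arrested, were set against immortalized and proliferating fibroblasts, pooled as cycling. Both names follow the culture labels only, since Mki67, Top2a and Lmnb1 did not separate quiescent from proliferating DMSO libraries. In all, 6 members had a more positive response in arrested cells and 2 a more negative one on all 3 scales (17.6% and 6.23% of all genes), and 6 and 11 did on the median-of-ratios scale (17.6% and 18.3%). Pfkfb3 (1.61 ± 0.19, adjusted p = 2.2e-06), Slc2a1 (1.45 ± 0.10, 3.2e-09), Egln1 (1.13 ± 0.15, 9.2e-06), Epas1 (0.68), Pfkl (0.56) and Hk2 (0.49) had the more positive response in arrested cells. Adm (-1.41 ± 0.34, 0.0029) and Eno2 (-1.2 ± 0.21, 0.00022) had the more negative one. For Egln1 and Pfkl, which fell everywhere, a positive value is a smaller fall.

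Quiescent and senescent fibroblasts differed from each other in 14 members on the median-of-ratios scale, 7 in each direction (11.2% and 9.16% of all genes), and in 5 and 6 on all 3 scales (8.22% and 7.19%). The response was more positive in quiescent fibroblasts for Slc2a1 (1.74 ± 0.15, adjusted p = 6.7e-08), Ankrd37 (1.55 ± 0.35, 0.0034), Hk2 (1.33 ± 0.19, 3.7e-05), Plod2 (1.1) and Vegfa (0.99). It was more negative for Pdk1 (-1.35 ± 0.28, 0.0017), P4ha2 (-1.35 ± 0.27, 0.0014), Aldoc (-1.24), Hif1a (-1.15 ± 0.22, 0.00083), Eno2 (-1.15) and Pfkm (-0.72). The Pfkm value lost its call without Senescent DMSO replicate 1, Senescent MG132 replicate 1 or 3, Quiescent DMSO replicate 1 or Quiescent MG132 replicate 1 (adjusted p = 0.056 to 0.078). Immortalized and proliferating fibroblasts were hardly told apart, with 2 members more positive in immortalized fibroblasts (Ndrg1 at 1.17 ± 0.26, adjusted p = 0.0054, and Epas1 at 0.98) and 1 more negative (Hk1 at -0.59) on all 3 scales (3.65% and 5.17% of all genes). On the median-of-ratios scale the counts were 3 and 1 (6.12% and 5.47% of all genes), and only Ndrg1 kept its call whichever library was left out.

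Other genes of the same pathways, counted whole by list on the median-of-ratios scale, also moved both ways under MG132. Their counts are to be read beside all genes on that scale, of which 25.3% passed higher and 26.9% lower in quiescent, 22.7% and 23.4% in senescent, 26.6% and 26.6% in immortalized and 25.2% and 24.8% in proliferating fibroblasts. Of 12 tested regulators of HIF outside the members, 3 passed higher and 1 lower in quiescent, 3 and 1 in senescent, 4 and 2 in immortalized and 4 and 1 in proliferating fibroblasts. Siah2, a ubiquitin ligase that acts on the EGLN hydroxylases, rose in 3 cell-states, by 1.56 in quiescent, 1.02 in senescent and 1.16 in proliferating fibroblasts, and Vhl passed in none (0.04 to 0.27). Of 13 genes of pyruvate entry into mitochondria, 5 passed higher and 4 lower in quiescent, 3 and 4 in senescent, 4 and 5 in immortalized and 5 and 5 in proliferating fibroblasts. Pdk2, a sister kinase of Pdk1, fell in all 4 (-1.68, -0.59, -0.64 and -1.23 in quiescent, senescent, immortalized and proliferating fibroblasts). Of 29 other hypoxia-induced genes, 10 passed higher and 9 lower in quiescent, 7 and 8 in senescent, 11 and 6 in immortalized and 8 and 9 in proliferating fibroblasts. Hmox1, haem oxygenase, which the oxidative stress factor NRF2 also induces, rose in all 4 (4.43, 1.16, 4.06 and 3.63 in the same order), and Zfp395 fell in quiescent (-2.23), immortalized (-2.42) and proliferating fibroblasts (-2.12).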

How the data were processed

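RNA-seq was analysed in 24 libraries of mouse tail fibroblasts. The deposited table holds TPM per gene, made by the authors and summing to 1000000 in each library. Per the labels, the libraries were stranded poly(A) mRNA. Per the study's methods, ERCC spike-ins were added by cell number and used for normalization, and the table holds 0 ERCC rows. A fixed sum removes any difference in total RNA between libraries. The study's methods name Cutadapt and kallisto on Ensembl transcripts of GRCm38.p6, with RUVg and DESeq2, whereas StringTie, HISAT2, edgeR, FastQC and cutadapt stand in the submitters' processing notes. By the study's methods, TPM were computed from spike-in normalized kallisto counts and gene length. Read depth is unknown.

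Genes with at least 1 TPM in at least 3 libraries (13489) were kept. TPM were divided by median-of-ratios size factors, log2-transformed after adding 1, and fitted in limma 3.58.1 (R 4.3.3) with mean-variance trend, as 8 group means with 16 residual degrees of freedom. P-values were adjusted by Benjamini-Hochberg within each of 10 comparisons. A further 2 scales were fitted throughout: the deposited TPM, and TPM with the scaling to a fixed library sum undone by a factor per library recovered from the steps of low values. Because 3 against 3 libraries cannot give an exact permutation p below 0.1, ratios of genes within a library are given without a test. The code was tested on simulated data. Alternatives were other pseudocounts, filters, weights, sample sets, a replicate block and leaving out each library. Python 3.11.15, pandas 2.3.3 and matplotlib 3.10.9 were used for tables and plots. Promoter windows were the first listed per gene in RefSeq.

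The 37 members and all lists were chosen with earlier results of these data known. All members are reported, and of each other list the 2 largest rises and falls, averaged over the cell-states and at 10 TPM or more in a group, could be named. Vhl, Mki67, Csf1r and other markers were named after their values were seen.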

Additional observations from a re-analysis of the deposited data

Results flagged for a closer look

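The responses to MG132 differed between cell-states in 17 members for arrested against cycling cells, in 4 for immortalized against proliferating and in 14 for quiescent against senescent fibroblasts, each by limma's interaction contrast with Benjamini-Hochberg adjustment (adjusted p under 0.05). Of all genes tested, 17.6% had a more positive and 18.3% a more negative response for arrested minus cycling. The shares were 6.12% and 5.47% for immortalized minus proliferating, and 11.2% and 9.16% for quiescent minus senescent. Values are differences of log2 responses on the median-of-ratios scale.

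Arrested minus cycling, the response was more positive for Pfkfb3 (1.61), Slc2a1 (1.45), Egln1 (1.13), Epas1 (0.68), Pfkl (0.56) and Hk2 (0.49). It was more negative for Adm (-1.41), Eno2 (-1.2), Pkm (-0.85), Pfkfb4 (-0.82), Ldha (-0.76), Eno1 (-0.75), Plod2 (-0.68), Tpi1 (-0.46), Gapdh (-0.44), Pgk1 (-0.38) and P4ha1 (-0.34). Of the negative values, Adm and Eno2 passed on all 3 scales. Tpi1 and Pgk1 each lost the call in 9 of the settings with 1 library left out.

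Immortalized minus proliferating, the differences were 1.17 for Ndrg1, 0.98 for Epas1, 0.52 for Vegfa and -0.59 for Hk1, and without single libraries the calls of Epas1, Vegfa and Hk1 were lost.

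Quiescent minus senescent, the response was more positive for Slc2a1 (1.74), Ankrd37 (1.55), Hk2 (1.33), Plod2 (1.1), Vegfa (0.99), Pfkfb3 (0.81) and Pfkfb4 (0.78). It was more negative for Pdk1 (-1.35), P4ha2 (-1.35), Aldoc (-1.24), Hif1a (-1.15), Eno2 (-1.15), Pfkm (-0.72) and Pfkp (-0.50). Pfkfb3, Pfkfb4 and Pfkp passed on the median-of-ratios scale but not on all 3 scales.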

How the results depend on the processing

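Library scaling and the handling of library variance changed the counts most. On the deposited TPM, the members called became 7 higher in quiescent, 5 higher and 21 lower in immortalized and 4 higher and 20 lower in proliferating fibroblasts under MG132, and with the fixed library sum undone 8 higher, 6 and 20, and 4 and 17. For the differences of responses, arrested minus cycling gave 19 more positive and 2 more negative on the deposited TPM (49.6% and 6.34% of all genes). With the sum undone it gave 15 and 2 (44.7% and 6.73%). On the deposited TPM, immortalized minus proliferating gave 4 more negative (9.9% of all genes) and quiescent minus senescent 12 more negative (15.3%). Immortalized against proliferating fibroblasts under DMSO gave 4 lower with the sum undone (14.5% of all genes). With array weights, 19 passed higher and 13 lower under MG132 in senescent fibroblasts, 20 were higher in quiescent and 17 in immortalized DMSO libraries against proliferating ones, and the differences gave 19 more negative (arrested minus cycling), 6 and 8 (immortalized minus proliferating) and 20 more negative (quiescent minus senescent). The weights were estimated from 3 libraries a group, and their estimation stopped with a warning before convergence. For array weights, the libraries compared alone, no filter, the replicate block and single libraries left out, shares over all genes are not given. Member counts under those settings are therefore not set against a background. Fitting only the libraries compared left 5 higher and 5 lower in senescent and 3 and 4 in immortalized DMSO libraries, 1 and 0 for immortalized minus proliferating and 12 more negative for quiescent minus senescent, and no filter left 1 more positive for immortalized minus proliferating.

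Among values called on the median-of-ratios scale or on the alternative, signs turned on the deposited TPM in proliferating fibroblasts for Hk2 (-0.21), Gpi1 (-0.15), Aldoa (-0.23), Pgk1 (-0.32), Eno1 (-0.44), Pkm (-0.17) and Ldhb (-0.57). In immortalized fibroblasts they turned for Hk2 (-0.37), Gpi1 (-0.70), Pfkp (-0.56), Aldoa (-0.39), Gapdh (-0.16), Pgk1 (-0.47), Pkm (-0.028), Ldha (-0.72), P4ha2 (-0.65) and Kdm3a (-0.54). Arrested minus cycling turned for Gpi1 (0.44), Pfkp (0.38), Aldoa (0.39), Tpi1 (0.13), Gapdh (0.15), Pgk1 (0.21), Vegfa (0.40), P4ha1 (0.24), P4ha2 (0.50) and Ndrg1 (0.57). With the sum undone, the proliferating values were -0.15 for Hk2, -0.10 for Gpi1, -0.17 for Aldoa, -0.11 for Pkm and -0.52 for Ldhb. The immortalized values were -0.28 for Hk2, -0.60 for Gpi1, -0.47 for Pfkp, -0.30 for Aldoa, -0.063 for Gapdh, -0.37 for Pgk1, -0.63 for Ldha, -0.55 for P4ha2 and -0.46 for Kdm3a, and those of arrested minus cycling 0.38 for Gpi1, 0.064 for Tpi1, 0.083 for Gapdh, 0.15 for Pgk1, 0.18 for P4ha1 and 0.51 for Ndrg1. Array weights turned Slc16a1 between quiescent and proliferating DMSO libraries (0.37). The cause was not tested beyond the shift of all genes given above.

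Leaving out 1 library gave 6 to 11 members lower in senescent against proliferating DMSO libraries, and 1 to 2 more positive and 0 to 4 more negative for immortalized minus proliferating. Other counts stayed within 1.5 times: under MG132, 10 to 12 higher and 12 to 13 lower in quiescent, 8 to 11 and 6 to 9 in senescent, 12 to 14 and 8 to 9 in immortalized and 12 to 15 and 6 to 9 in proliferating fibroblasts. Of 370 single values, 366 kept direction and call with a filter at 5 TPM, 366 with a pseudocount of 0.1, 364 with a pseudocount of 5, 358 with no filter and 367 without the variance trend.

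Same-numbered MG132 and DMSO libraries correlated at -0.66 to 0.40, and in 3 of 12 cases best with their own number. These cases were replicates 2 (0.40) and 3 (0.38) of immortalized and replicate 3 (0.21) of proliferating fibroblasts. Replicate numbers thus showed no pairing in quiescent and senescent fibroblasts, and whether immortalized libraries were paired was not settled. With the replicate block, 14 higher and 15 lower were called in quiescent, 10 and 8 in senescent, 13 and 9 in immortalized and 14 and 8 in proliferating fibroblasts. Kdm3a in senescent against proliferating DMSO libraries and Vegfa in immortalized minus proliferating lost their calls with the block (adjusted p = 0.059 each).

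Read depth is unknown, so genes near 1 TPM such as Car9 and Aldoc carry an error that cannot be given as a counting interval.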

Other observations

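Some side enzymes of glycolysis outside the 37 members, among them genes of glycogen metabolism, went both ways under MG132. Pgm1, a sugar phosphate mutase taken by its symbol alone, fell in all 4 cell-states, by -0.60 in quiescent, -0.33 in senescent, -0.98 in immortalized and -0.58 in proliferating fibroblasts on the log2 scale. It averaged 18.1 ± 1.1 TPM in immortalized MG132 libraries and 62.2 ± 4.0 TPM in immortalized DMSO libraries (SD, n = 3). Gys1, the glycogen synthase of most tissues, fell in senescent (-0.54), immortalized (-0.89) and proliferating fibroblasts (-0.97) and was -0.02 in quiescent ones. Pgm2, a related mutase, passed higher in all 4 cell-states on the median-of-ratios scale (0.26 to 0.65), and Gbe1, the branching enzyme, in quiescent (0.68), immortalized (0.54) and proliferating fibroblasts (0.64), with -0.10 in senescent ones. Gbe1 was named after its values were seen. Bpgm, the bisphosphoglycerate mutase, rose in immortalized (1.52) and proliferating fibroblasts (1.21). The list of 13 tested isoenzymes and side enzymes from which these come had 3 genes higher and 4 lower in quiescent, 2 and 4 in senescent, 3 and 4 in immortalized and 4 and 3 in proliferating fibroblasts on the median-of-ratios scale. Those counts were near the background of all genes on that scale (25.3% and 26.9%, 22.7% and 23.4%, 26.6% and 26.6%, and 25.2% and 24.8% in the same order).

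Cited2, a HIF target that competes with HIF for its coactivator, went opposite ways. It averaged 32.9 ± 1.5 TPM in senescent MG132 libraries and 314 ± 120 TPM in senescent DMSO libraries (-3.13 on the log2 scale, limma adjusted p = 1.5e-07), and 273 ± 67 TPM in immortalized MG132 libraries and 154 ± 56 TPM in immortalized DMSO libraries (1.63, adjusted p = 0.00014). Pdhx, a subunit of the pyruvate dehydrogenase complex, averaged 64.1 ± 5.2 TPM in senescent MG132 libraries and 15.4 ± 4.5 TPM in senescent DMSO libraries (2.03, adjusted p = 4.8e-07).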
